A study of Xenopus tropicalis with 31 samples.

Results

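Sox3 binding in *Xenopus tropicalis* embryos was compared between stage 9, the late blastula, and stage 8, the mid-blastula, by chromatin immunoprecipitation followed by sequencing (ChIP-seq). The list of stage 9 held 4401 peaks and the list of stage 8 held 5827, of 100260 Foxi2, Sox3 and Ep300 peaks in the series. Both were compared as peak lists. A stage 9 peak that shared at least 1 bp with a stage 8 peak was called kept, and the other stage 9 peaks were called gained. Stage 8 peaks that met no stage 9 peak were called lost. By this rule 3363 stage 9 peaks were gained and 1038 were kept, while 1047 stage 8 peaks were kept and 4780 were lost.

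Sox3 belongs to the SoxB1 family of transcription factors, which bend DNA with an HMG box. In *Xenopus* its mRNA is supplied by the mother, is found on the animal side that forms ectoderm, and is later confined to the neural plate. The embryonic genome is switched on during the blastula stages, so the comparison spans the onset of zygotic transcription. Foxi2 is a second maternal factor of the animal side, with a forkhead domain. Ep300 is a coactivator that acetylates histones, H3K27ac is an acetylation found at active enhancers, and H3K27me3 is the methylation laid down by the Polycomb repressive complex.

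All Sox3 libraries came from whole wild-type embryos, fixed in pools and staged by the Nieuwkoop-Faber table, with 2 replicates at stage 9 and 2 at stage 8. Binding in a whole embryo cannot be placed in a germ layer. Each set of peaks was then compared with Sox3 and Foxi2 in whole wild-type embryos of stage 10.5, the early gastrula, and with Foxi2 at stages 8 and 9. It was also compared with Ep300, H3K27ac and H3K27me3 in wild-type ectoderm and endoderm dissected at stage 10.5. These Ep300 and H3K27ac lists rest on 1 library per tissue, without a replicate, and H3K27me3 on 2. A second Ep300 experiment compared FS morphants, injected with morpholinos against Foxi2 and Sox3, with wild-type embryos. Morpholinos block a transcript without removing the gene. The extraction protocol entered for every sample names an antibody against VegT, a T-box factor of the vegetal side, and the titles were followed here.

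The 2 replicates of a stage were combined by the authors into 1 list, and the spread among replicates is therefore unknown here. No test over samples was possible. Intervals below are 95% intervals. They cover counting error over peaks only, although neighbouring peaks are not independent. The depth of the libraries was not analysed here.

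Most listed sites differed between the stages. Only 23.6% of stage 9 peaks (22.4 to 24.9) were kept from stage 8, and 18.0% of stage 8 peaks (17.0035 to 18.9748) were kept at stage 9. Merging both lists gave 9181 regions, of which 11.3% were bound at both stages. Sites that failed the overlap were rarely close misses. The median distance from a lost summit to the nearest stage 9 summit was 155159 bp, and 11 of 4779 lost peaks on the chromosomes lay under 1 kb away. For gained peaks the median distance to a stage 8 summit was 95570 bp, with 15 under 1 kb. Among kept pairs the smallest shared stretch was 152 bp. When both lists were cut to their 50% of peaks with the highest folds before the overlap, the kept shares were 19.2% at stage 9 and 14.6% at stage 8. A peak whose partner fell in the weaker part then no longer counted as kept. These shares therefore do not show that strong peaks were kept less often. Against the full lists, the kept share was highest in the top decile of each stage, as given below.

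Peak strength was next compared, as the fold enrichment of ChIP over input at the summit. Gained peaks had a median fold enrichment of 17.6 (17.4 to 17.9), against 19.2 (18.5 to 19.9) for kept peaks at stage 9. At stage 8, kept peaks had a median of 18.4 (17.4 to 19.1) and lost peaks 13.6 (13.1 to 13.6). The difference in medians was thus -1.52 (-2.27 to -0.840) for gained minus kept peaks, and 4.79 (3.801 to 5.58) for kept minus lost peaks. Folds of the 2 stages were computed against different inputs, and the lists differ in their lowest value, 2.46 at stage 9 and 7.30 at stage 8. The 10th percentile had the other order, with 12.9 at stage 9 and 8.77 at stage 8, so few stage 9 peaks were that weak. Stage 8 folds were also coarser, with 1050 distinct values among 5827 peaks, against 1777 among 4401 at stage 9. Differences in strength between sets are therefore given within a stage, and folds of different stages are set side by side as a description only.

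**Figure D1:**
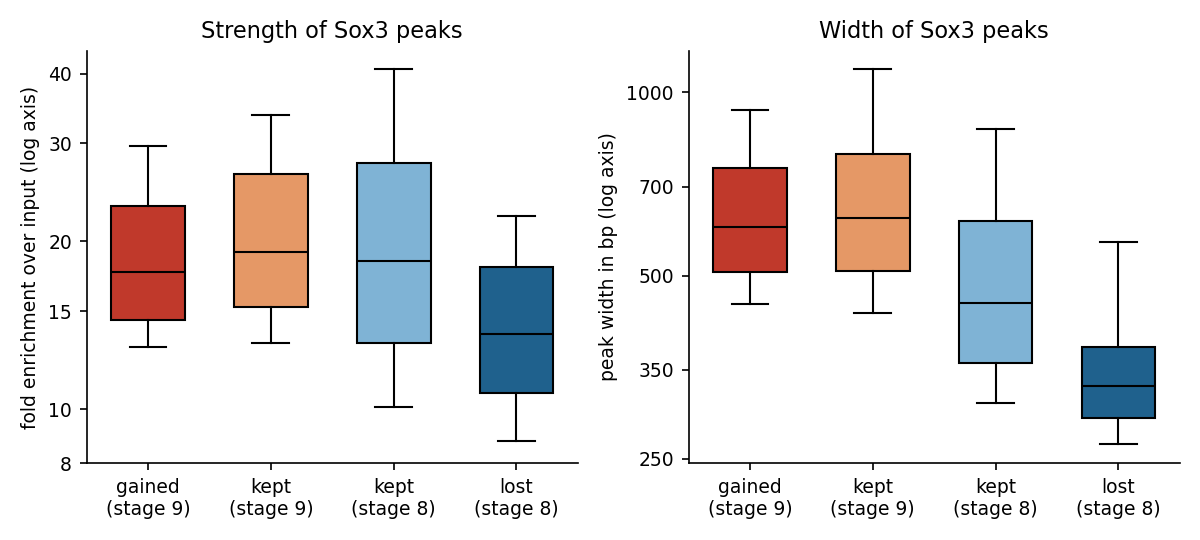
Fold enrichment (left, log axis) and width in bp (right, log axis) of Sox3 peaks in 4 sets. Boxes span the quartiles with the median as a line, and whiskers reach the 10th and 90th percentiles of peaks. Within stage 8, lost peaks had medians of 13.6 and 329.5 bp, below the 18.4 and 450 bp of kept peaks.

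The share kept was by far the highest among the strongest stage 8 peaks. In the top decile of the stage 8 list, at folds of 24.8 to 102, 334 of 583 peaks (57.3%, 53.2 to 61.2) were kept. In the decile below, the share was 20.4% (17.3 to 23.9), and across the other 8 deciles it ran between 8.92% and 17.4%. The stage 9 list had a flatter profile, with 18.9% in the second decile and 35.7% (31.3 to 40.3) in the top decile. Most of the strongest stage 9 peaks were therefore absent from the stage 8 list. The lists also differed in the p-value of the peak caller, MACS2, with a median −log10 p of 128 at stage 9 and 32.2 at stage 8. A stage 9 peak absent from the stage 8 list may still have been bound at stage 8. Within stage 8 the median −log10 p was 29.5 at lost and 46.3 at kept peaks. Whether each lost peak marks binding at stage 8 was not tested. Strong peaks more often coincided with stage 10.5 ectoderm Ep300, at 76.6% in the top stage 9 decile and 31.5% in the lowest, against 18.7% in the top stage 8 decile and 3.09% in the lowest.

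**Figure D2:**
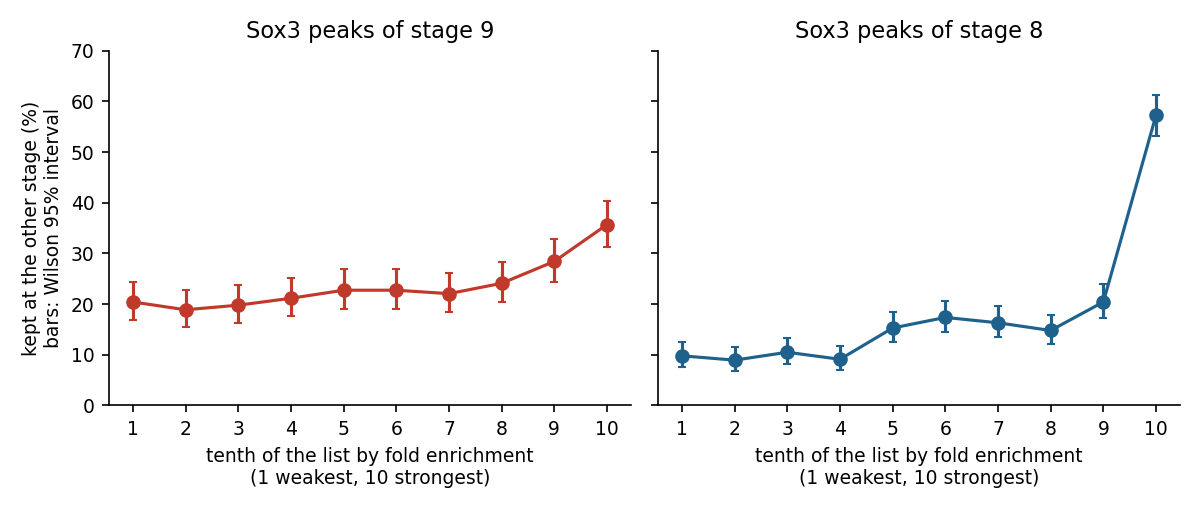
Share of Sox3 peaks kept at the other stage (percent) in each decile of the stage 9 list (left) and the stage 8 list (right), ordered by fold enrichment. Error bars are Wilson 95% intervals. The top decile of stage 8 peaks stands at 57.3%, against 20.4% in the decile below it.

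Widths followed a similar order. The median width was 601 bp for gained peaks and 621.5 bp for kept peaks at stage 9. At stage 8 it was 450 bp for kept and 329.5 bp for lost peaks, a difference of 120.5 bp (110 to 140). The difference of -20.5 bp for gained minus kept peaks became 12 bp (-5.46 to 27.2) when kept peaks had to share 50% or more of both lengths, so its direction was not stable. A few lost peaks were very wide. The 5 lost peaks wider than 5000 bp were all on chromosome 3, and the widest had 26411 bp. No gained peak was wider than 4536 bp.

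Positions were compared within the 1047 pairs of kept peaks. Their summits lay a median of 25 bp apart, and 960 pairs (91.7%) had summits within 100 bp. Pairs were formed by overlap, which limits this distance. A site that moved beyond its peak would count as lost and gained. The stage 9 peak was the wider one in 928 pairs (88.6%), and 73.3% of the stage 8 peaks lay wholly inside their stage 9 partner. Stage 9 peaks were wider over the whole lists too, with medians of 604 bp at stage 9 and 340 bp at stage 8. The folds of a pair rest on different inputs, so their ratio gives no change in binding. As listed, the ratio of stage 9 to stage 8 had a median of 1.09 with quartiles of 0.726 and 1.57. Across these pairs, the folds of the stages were weakly related, with a Spearman rho of 0.186 and a Pearson r of 0.214 on the log2 scale. Pairs share a genome and an antibody and are not replicates.

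The 5 strongest gained peaks had folds of 53.1 to 57.8. The highest, 57.8, belonged to a peak on chromosome 1 at 16975929 to 16976786, 32491 bp from *not*, a homeobox gene of the organizer and notochord. The next, with a fold of 55.5, lay on chromosome 3 at 105051841 to 105052734, 2193 bp from *gatm*, which encodes an enzyme of creatine synthesis. The third had a fold of 54.0 and lay on chromosome 4 at 140170619 to 140171350, 8714 bp from *rybp*, a subunit of variant Polycomb complexes. The fourth, with a fold of 53.4, lay on chromosome 3 at 42502118 to 42502899, 43259 bp from *msx2*, a homeobox gene downstream of BMP signals. The fifth had a fold of 53.1 and its summit fell within *h2ac14*, a histone H2A gene, on chromosome 9 at 3582802 to 3583442. All 5 overlapped Foxi2 peaks of stages 8, 9 and 10.5, a stage 10.5 Sox3 peak, and Ep300 peaks of both tissues.

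The 5 strongest kept peaks had folds of 53.7 to 58.5 at stage 9 and 20.5 to 40.4 at stage 8. The first lay on chromosome 5 at 11196313 to 11197071, with *lyplal1* as the nearest gene 127555 bp away, and had a fold of 58.5 at stage 9 and 24.4 at stage 8. Of the others, 3 had their summits within *ehbp1*, which links endocytic proteins to actin, *hhat*, the acyltransferase of Hedgehog ligands, and *b3gat1l*. The fifth lay 221301 bp from *eif3h*, a translation initiation factor subunit. All 5 were also in the stage 10.5 Sox3 list, with folds there of 26.9 to 53.5. The peaks with *lyplal1*, *b3gat1l* and *eif3h* as nearest gene overlapped no Foxi2 peak of any stage. In the first Ep300 experiment they had Ep300 in ectoderm alone.

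The strongest lost peak had a fold of 88.1 and a width of 2728 bp and lay within *LOC116406442* on chromosome 2 at 175396492 to 175399219. The second, with a fold of 57.0, fell within *lrp1b*, a receptor of the LDL receptor family, on chromosome 9 at 80594316 to 80596882. The other 3 had folds of 46.6 to 49.7 and lay 36936 bp from *grb14*, an adaptor of the insulin receptor, within *adamts12*, a metalloprotease gene, and 61873 bp from *dmxl2*, a regulator of the vacuolar proton pump. Only the peak near *grb14* overlapped a stage 10.5 Sox3 peak, where the fold was 8.05. The peaks in *LOC116406442* and *lrp1b* overlapped Ep300 of both tissues in the first experiment, but no Ep300 peak of the second. The other 3 overlapped no Ep300 peak.

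The later fate of the sets was read from the stage 10.5 Sox3 list of 14648 peaks, which the sorting into sets did not use. Of the 9181 merged regions, 53.5% overlapped it. Among gained peaks 3183 of 3363 (94.6%, 93.8 to 95.4) did, among kept peaks 929 of 1038 (89.5%, 87.5 to 91.2), and among lost peaks 801 of 4780 (16.8%, 15.7 to 17.8). The gained minus lost difference was 77.9 percentage points (76.5 to 79.1). Where a peak was present at stage 10.5, its median fold there was 21.8 (21.4 to 22.1) at gained sites, 18.4 (17.7 to 19.1) at kept sites and 8.87 (8.73 to 9.00) at lost sites, against 12.02 over the whole list. Lost sites that were listed again at stage 10.5 had been somewhat stronger at stage 8, with a median fold of 15.8 against 13.1 at lost sites absent from the stage 10.5 list.

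Foxi2 separated the sets in the same way. Of all 18901 merged Sox3 regions of the 3 stages, 24.3% overlapped a Foxi2 peak of stage 8, 20.8% one of stage 9 and 25.7% one of stage 10.5. At gained peaks the Foxi2 shares were 62.6%, 61.4% and 65.2% at these stages. At kept peaks they were 55.2%, 53.6% and 28.3%, and at lost peaks 12.2%, 5.38% and 1.17%. Foxi2 was thus in the stage 8 list at 2106 of the 3363 sites that entered the Sox3 list only at stage 9. These 2106 sites had a median Sox3 fold of 18.4, against 16.7 at the 1257 gained sites without stage 8 Foxi2. Ectoderm Ep300 was found at 60.1% of the gained sites with stage 8 Foxi2 and at 45.3% of those without it. The stage 8 Foxi2 list held 13158 peaks, more than either later Foxi2 list, so the shares of different stages are not on an equal footing.

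Ep300 at stage 10.5 was examined to ask which sets coincided with coactivator sites. Of the 18901 merged regions, 21.2% overlapped an ectoderm Ep300 peak and 23.2% an endoderm Ep300 peak. In ectoderm the shares were 54.5% of gained (52.8 to 56.2), 27.8% of kept (25.2 to 30.6) and 1.86% of lost peaks (1.52 to 2.29). In endoderm they were 40.4% of gained (38.7 to 42.02), 38.4% of kept (35.5 to 41.4) and 19.7% of lost peaks (18.6 to 20.8). The gained minus lost difference was 52.7 points (50.9 to 54.4) in ectoderm and 20.7 (18.7 to 22.7) in endoderm. In endoderm, gained and kept peaks differed by 1.91 points, with an interval of -1.51 to 5.27 that includes 0. In the endoderm wild-type list of the second experiment, this difference was 10.3 points (6.89 to 13.7). The endoderm list held 11690 Ep300 peaks and the ectoderm list 5840, so shares of the tissues are not on an equal footing either.

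Lost peaks with Ep300 had it in endoderm. Ep300 in endoderm alone was found at 868 lost peaks (18.2%), in both tissues at 72 and in ectoderm alone at 17. Among gained peaks 909 (27.03%) had Ep300 in ectoderm alone, 925 (27.5%) in both tissues and 432 (12.8%) in endoderm alone. Kept peaks lay between, with 69 (6.65%), 220 (21.2%) and 179 (17.2%). Among gained peaks, those with Ep300 in both tissues had a median Sox3 fold of 21.8, against 15.7 for those with Ep300 in neither. Among kept peaks at stage 9, the median was 24.6 with Ep300 in both tissues, 25.8 with Ep300 in ectoderm alone and 17.6 with Ep300 in neither. The second experiment was read in the same way in wild-type embryos. Its ectoderm list held 59.3% of gained, 24.4% of kept and 0.711% of lost peaks, against 23.5% of merged regions. Its endoderm list held 50.1%, 39.8% and 20.9%, against 28.3% of merged regions.

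Ep300 sites of each set were followed into FS morphants. In ectoderm of FS morphants, Ep300 was listed at 28.3% of gained, 23.1% of kept and 1.03% of lost peaks, against 11.9% of merged regions. In endoderm of FS morphants it was listed at 43.7%, 37.6% and 22.8%, against 26.4% of merged regions. Among all wild-type ectoderm Ep300 peaks of the second experiment, 44.1% were also in the FS morphant list. At gained Sox3 peaks with wild-type ectoderm Ep300, 865 of 1995 (43.4%, 41.2 to 45.5) also had it in FS morphants, a share near that background. At kept Sox3 peaks 166 of 253 (65.6%, 59.6 to 71.2) did, and at lost peaks 20 of 34 (58.8%, 42.2 to 73.6). In endoderm the background was 83.5%, and the shares were 84.3% at gained, 89.6% at kept and 86.4% at lost peaks. No control morpholino list was analysed here.

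**Figure D3:**
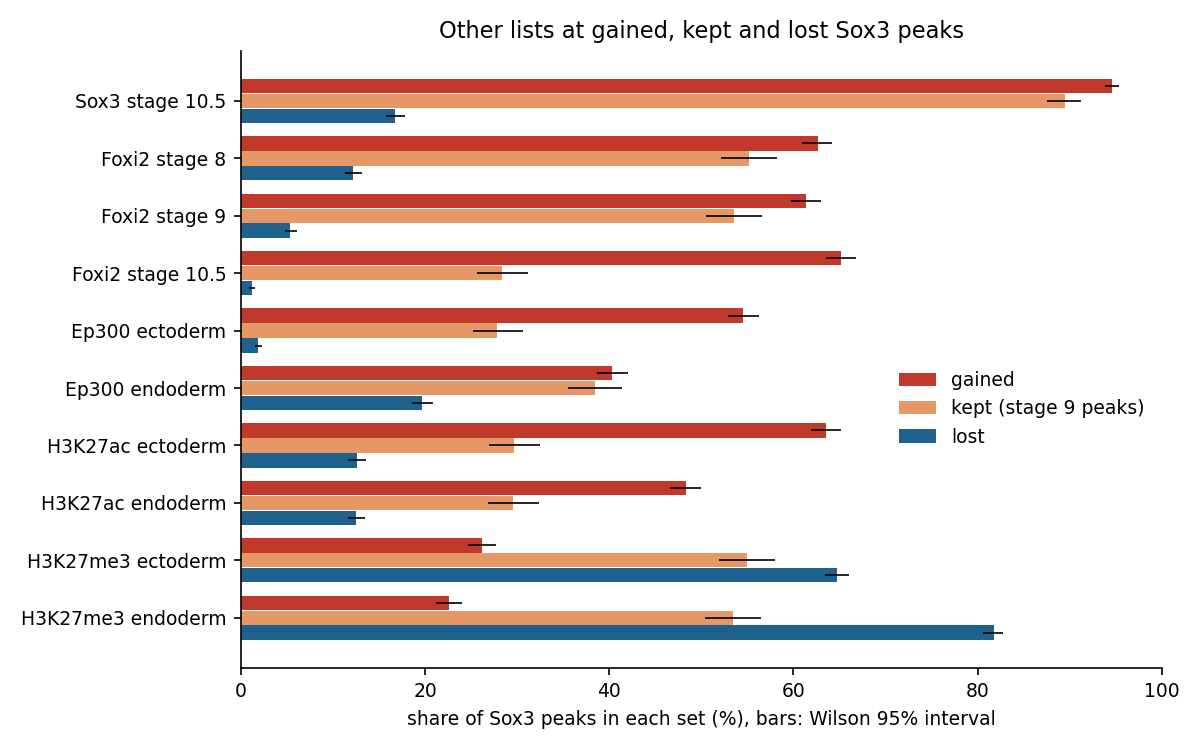
Share of gained, kept and lost Sox3 peaks (percent, x axis) found in each other list, with Wilson 95% intervals. Factor and Ep300 lists were matched by 1 bp overlap, and histone regions at the Sox3 summit. Gained peaks have the highest share in every factor, Ep300 and H3K27ac list, but in endoderm Ep300 their interval overlaps that of kept peaks. With H3K27me3 regions of all sizes, lost peaks have the highest shares, 64.7% in ectoderm and 81.7% in endoderm.

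Histone marks were read at the Sox3 summit. The H3K27ac regions of ectoderm, stitched by the authors, covered 11.7% of the chromosomes, and those of endoderm 9.66%. H3K27me3 regions covered 11.8% in ectoderm and 10.7% in endoderm. Ectoderm H3K27ac held 63.5% of gained (61.9 to 65.2), 29.7% of kept (26.97 to 32.5) and 12.6% of lost summits (11.7 to 13.6), against 46.3% of all merged Sox3 regions at their centres. Endoderm H3K27ac held 48.3%, 29.6% and 12.5%, against 34.6% of merged regions. Super-enhancers of ectoderm, the top-ranked stitched regions, held 37.5% of gained, 13.0% of kept and 7.18% of lost summits, against 24.7% of merged regions. In endoderm the super-enhancer shares were 22.1%, 9.73% and 6.13%, against 14.4%. The endoderm ranking is used as deposited. Its signal column carries the name of the animal library, so the library behind the endoderm super-enhancers is in doubt.

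H3K27me3 ran the other way. In ectoderm it held 26.1% of gained (24.7 to 27.6), 55.0% of kept (52.0 to 58.0) and 64.7% of lost summits (63.4 to 66.1), against 33.7% of merged regions. In endoderm it held 22.6%, 53.5% and 81.7%, against 36.7%. The gained minus lost difference was -38.6 points (-40.6 to -36.6) in ectoderm and -59.1 (-60.9 to -57.3) in endoderm. Many of the regions at lost sites were small. Of the 3095 lost summits in ectoderm H3K27me3, 1133 (36.6%) lay in regions under 3 kb, against 72 of 879 (8.19%) for gained summits. With regions of 3 kb or more, the ectoderm shares were 24.0% of gained, 42.8% of kept and 41.05% of lost summits, a gained minus lost difference of -17.0, and lost no longer exceeded kept. In endoderm they were 20.7%, 41.6% and 48.7%.

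The marks were also combined. In ectoderm, 48.9% of gained summits lay in H3K27ac without H3K27me3, against 12.2% of kept and 4.83% of lost summits. H3K27me3 without H3K27ac held 11.4% of gained, 37.6% of kept and 57.0% of lost summits. Lost peaks marked by H3K27me3 in endoderm alone numbered 896, and 47.7% of them overlapped an endoderm Ep300 peak, against 15.8% of the 3011 lost peaks marked in both tissues and 3.802% of the 789 marked in neither. Of the 940 lost peaks with endoderm Ep300, 96.0% lay in endoderm H3K27me3 and 32.8% in endoderm H3K27ac. Among the 3840 lost peaks without endoderm Ep300, these shares were 78.3% and 7.55%. The coactivator and the repressive mark were thus listed at the same sites of the same tissue, although H3K27me3 was common at lost peaks with or without Ep300. The 3 longest runs of neighbouring lost peaks, described below, held 40, 36 and 20 of the 940 peaks with endoderm Ep300. In these runs 40, 37 and 10 peaks lay in endoderm H3K27ac. The shares without these runs were not computed.

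Kept and lost sites were also compared among the strongest stage 8 peaks, without matching their folds any further. Within the top decile of stage 8 peaks, ectoderm Ep300 was found at 29.0% of 334 kept and 4.82% of 249 lost peaks. Stage 10.5 Sox3 was found at 88.0% and 28.9%, stage 8 Foxi2 at 63.2% and 30.9%, and endoderm H3K27me3 at 59.6% and 83.9%.

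Along the chromosomes, gained peaks sat closer to other peaks of their stage. Another stage 9 summit lay within 10 kb of 29.7% of gained peaks (28.2 to 31.3) and 21.5% of kept peaks. Another stage 8 summit lay within 10 kb of 21.6% of kept peaks and 17.8% of lost peaks (16.8 to 18.9). The gained minus lost difference was 11.9 points (10.0 to 13.8), although the stage 9 list was the shorter one. Among the 50% of peaks with the highest folds at each stage, it was 4.04 (1.82 to 6.31). Gained peaks still led lost peaks at 100 kb, with 65.8% against 59.8%. At 200 kb the order turned, with 78.7% of gained and 80.9% of lost peaks.

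**Figure D4:**
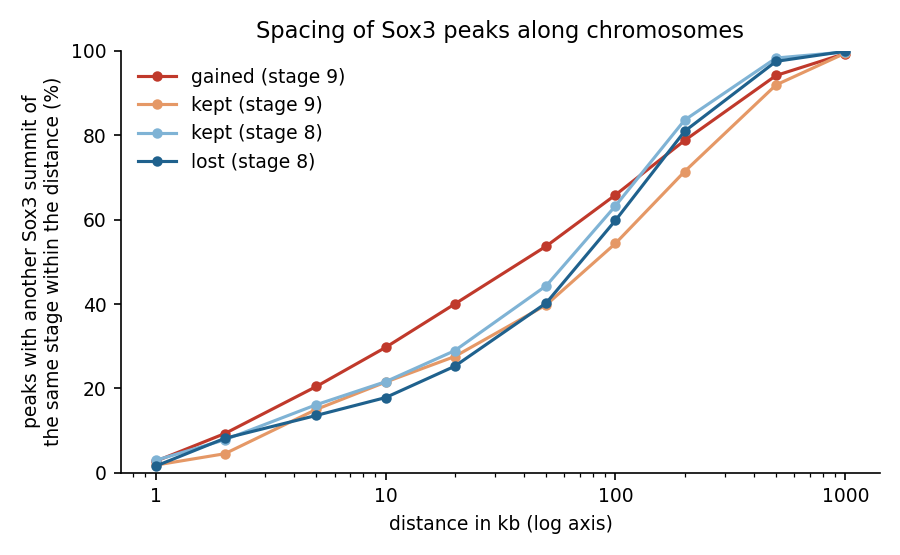
Share of peaks (percent) with another Sox3 summit of the same stage within a given distance (kb, log axis), for gained, kept and lost peaks. At 10 kb gained peaks stand at 29.7%, kept peaks at 21.5% in the stage 9 list, and lost peaks at 17.8%.

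Peaks of a set less than 10 kb apart were joined into runs. Gained peaks formed 99 runs of 3 or more peaks, which held 10.5% of them, and kept peaks of stage 9 formed 6 with 1.73%. Lost peaks formed 48 such runs with 6.30%. Only 1 gained run had 10 or more peaks, whereas 6 lost runs did, holding 141 lost peaks. Leaving out runs of this length moved the gained minus lost difference in close neighbours to 14.1 points.

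The longest gained run held 13 peaks on chromosome 7 at 26868326 to 26920390, over *ventx1.1*, *ventx2.1* and *ventx2.2*. Its span held 15 stage 9 Sox3 peaks in all and 2 of stage 8, so the locus was not free of Sox3 at stage 8. The *ventx* genes encode homeobox repressors that act downstream of BMP signals and hold back differentiation in the blastula. Folds ran between 15.6 and 34.4, and 12 of the 13 peaks overlapped ectoderm Ep300 and 12 endoderm Ep300. All 13 lay in H3K27ac in both tissues and none in H3K27me3. The second run held 9 peaks across *znf608* on chromosome 1 at 168842657 to 168870910, all within super-enhancers of both tissues. Of the 5 gained runs with 6 peaks each, 1 lay at *sall4*, a zinc finger gene of pluripotent cells, 1 at *foxa4*, a forkhead gene of the organizer, 1 at *hes5.7* to *hes5.9*, repressors downstream of Notch, 1 lay 39120 bp from *sox11*, a SoxC gene of neural progenitors, and 1 lay 59487 bp from *LOC100493456*. The *foxa4* run had all 6 peaks in endoderm H3K27ac and none in ectoderm H3K27ac, and all 6 in ectoderm H3K27me3 and none in endoderm H3K27me3. At the *sox11* run the acetylation was reversed, with 6 of 6 peaks in ectoderm H3K27ac and 0 in endoderm H3K27ac.

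The longest runs of kept peaks held 3 stage 9 peaks each. The one with the highest median fold at stage 9 lay 1159 bp from *akt2*, a kinase of insulin signalling, on chromosome 8 at 77698402 to 77708179, with a median fold of 35.3 at stage 9 and 49.7 at stage 8. All 3 of its peaks overlapped Ep300 in both tissues. The others overlapped *arfgef3* and *LOC116408630*, or had *timm10*, *tmem72* or *LOC105948377* as the nearest protein-coding gene.

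Both longest runs of lost peaks lay on chromosome 9 and held no gene. The first had 41 stage 8 peaks at 50323158 to 50404781, and the second 37 at 45479812 to 45551035. Each held 0 Sox3 peaks at stage 9 and 0 at stage 10.5. Their peaks were evenly spaced. The median distance between neighbouring summits was 1818.5 bp in the first run (quartiles 1810.75 and 1831) and 1821 bp in the second (1810.75 and 1835.75), whereas it was 2394 bp in the *ventx* run with quartiles of 1602.25 and 8127.25. The runs held 49 and 43 endoderm Ep300 peaks, against 5 and 14 ectoderm Ep300 peaks. Acetylation was found in both tissues. The runs coincided with the ectoderm H3K27ac regions of rank 15 and rank 14 of 16257, and 31 of 41 and 33 of 37 of their peaks lay in ectoderm H3K27ac. They also coincided with the endoderm regions of rank 1 and rank 2 of 17263 in the ranking whose library is in doubt. In endoderm, 40 of 41 and 37 of 37 of their peaks also lay in H3K27me3. None lay in ectoderm H3K27me3. Whether these stretches consist of repeated sequence was not tested.

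The third lost run held 23 peaks on chromosome 3 at 146260945 to 146365045, including 4 of the 5 lost peaks wider than 5000 bp. The fifth lay 64779 bp from *dmxl2*, beside the strong lost peak described above. The run contained *mir427-1*, *mir427-2* and *mir427-3*, copies of the microRNA that clears maternal mRNAs once the embryonic genome is active. Sox3 peaks there numbered 23 at stage 8, 0 at stage 9 and 0 at stage 10.5. Of the 23 peaks, 20 overlapped endoderm Ep300 and 6 ectoderm Ep300, and all 23 lay in H3K27me3 of both tissues. The annotated copies lay between 146261503 and 146263489, near the start of the run. Reads of near-identical microRNA copies may be split or misplaced by alignment, so peaks at these copies are uncertain. Whether the rest of the run, with its wide peaks, is affected in the same way was not tested.

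**Figure D5:**
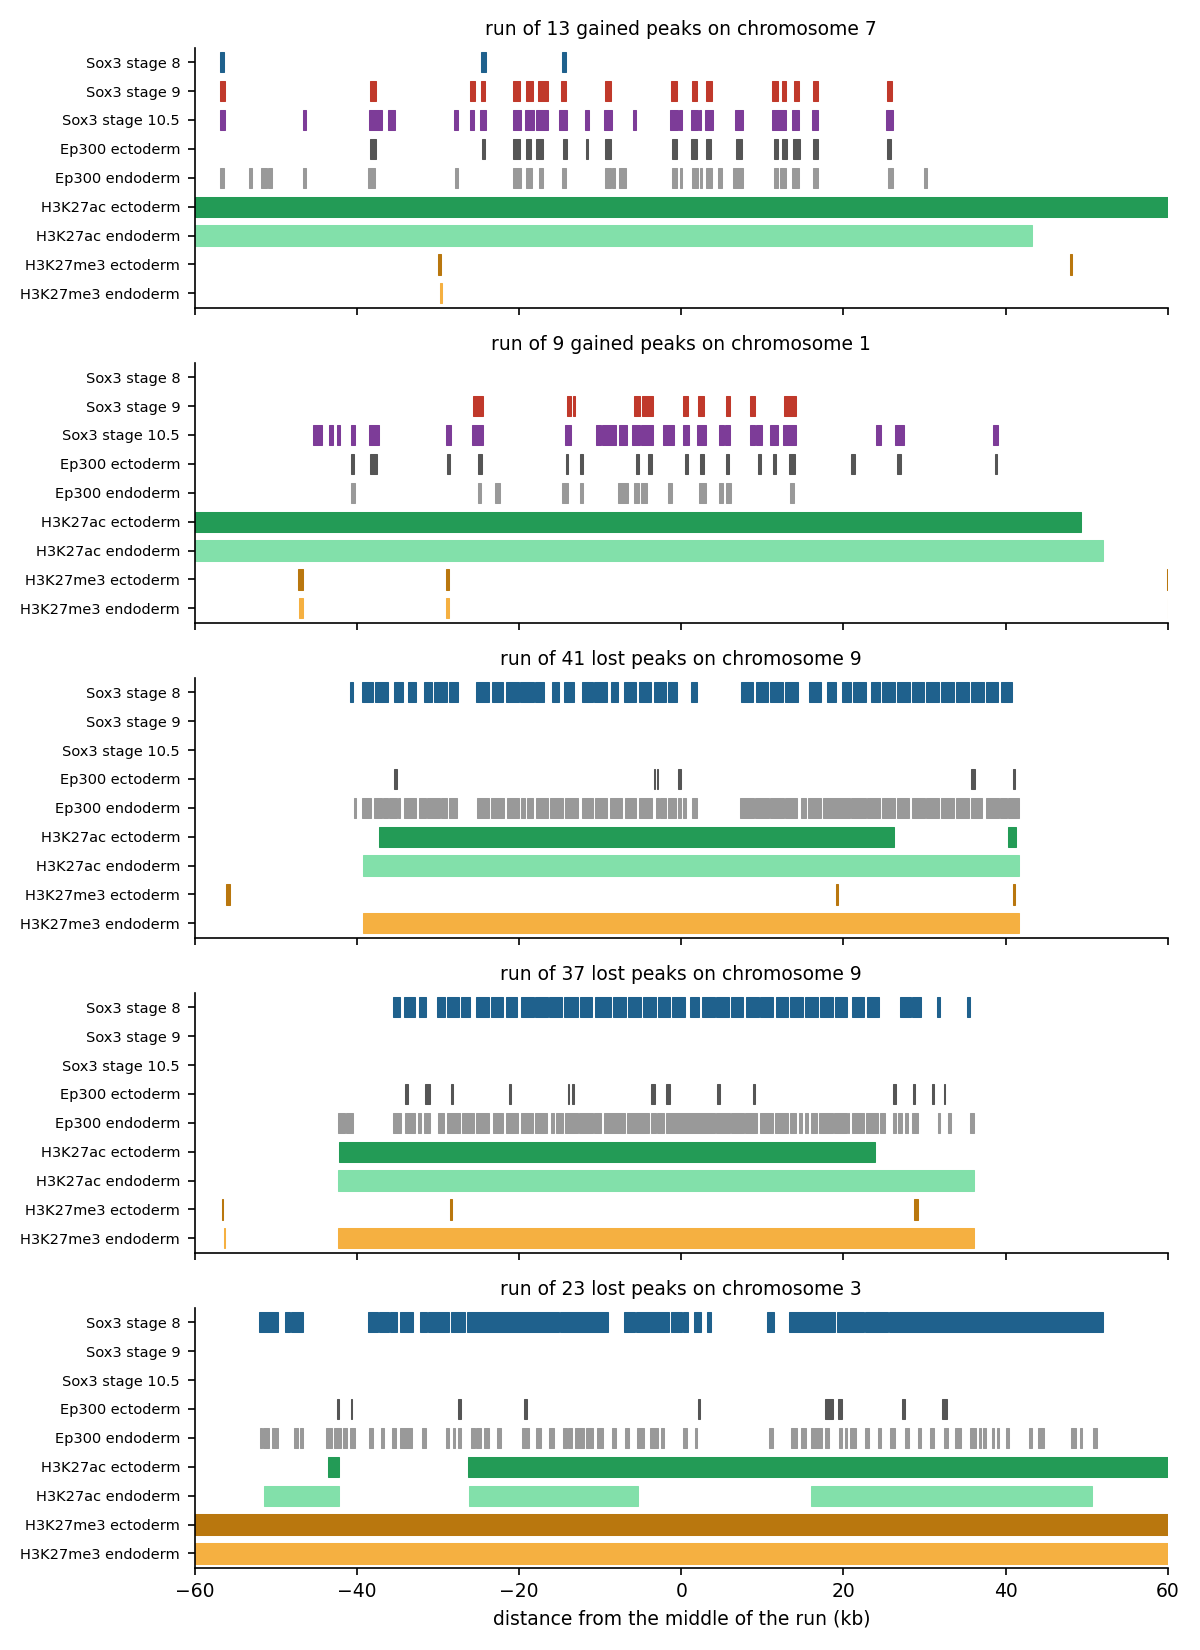
The 2 longest gained runs and the 3 longest lost runs, with each list as a row of boxes against the distance in kb from the middle of the run, to scale. The gained runs hold 13 and 9 peaks, and the lost runs hold 41, 37 and 23 stage 8 peaks over stretches with 0 Sox3 peaks at stages 9 and 10.5.

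By chromosome, gained peaks numbered 2.04 to 2.66 per Mb. Lost peaks numbered 2.27 to 4.20 per Mb, with the highest density on chromosome 9 and the lowest on chromosome 10. Of the 383 lost peaks on chromosome 9, 95 lay in runs of 10 or more, and without these its density was 3.16 per Mb, within the range of the other chromosomes. Summits lay within a protein-coding gene in 46.7% of gained (45.0 to 48.4), 40.7% of kept and 47.0% of lost peaks (45.6 to 48.4). Outside genes, the median distance to the nearest protein-coding gene was 11677 bp for gained, 28704 bp for kept and 20327 bp for lost peaks.

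Genes of 4 developmental lists were then searched for Sox3 peaks within 20 kb. Over 21749 protein-coding genes, 13.4% had a gained peak in reach, 4.38% a kept peak and 19.8% a lost peak. Of 66 listed genes found in the gene table, 49 (74.2%) had a gained peak, 11 (16.7%) a kept peak and 9 (13.6%) a lost peak. The lists hold genes known in part from this study, and gene length was not matched, so no test is attached to these shares.

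Neural regulators had the highest share of the 4 lists, with a gained peak at 14 of 14 genes, a kept peak at 0 and a lost peak at 1. The peak with the highest fold, 48.6, lay 3589 bp from *neurog3*, a proneural gene. A peak of 40.7 lay 2574 bp from *sox21*, a SoxB2 gene, one of 39.8 lay 1204 bp from *lhx5*, a forebrain homeobox gene, and one of 36.6 lay within *otx2*, a homeobox gene of the anterior head. *Sox2*, a SoxB1 relative of *sox3*, had 1 gained peak, 10602 bp away with a fold of 18.8. The *zic2* gene, a zinc finger regulator of the neural plate, had 2 gained peaks and 1 lost peak with a fold of 13.1. The genes *foxd4l1.1* and *foxd4l1.2* shared the same 5 gained peaks on chromosome 1, so their counts are not independent.

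Among ectoderm regulators and keratins, 12 of 16 genes had a gained peak, 1 a kept peak and 1 a lost peak. The gene *tp63*, the master regulator of epidermis, had 1 gained peak with a fold of 22.5 within it. The genes *grhl3*, *tfap2a* and *tfap2c*, regulators of surface ectoderm, had 2 gained peaks each, and *foxi1* and *eya1* had 3 each. *Gata3* had a kept peak 12842 bp away with a fold of 20.1 at stage 9. The keratins *krt7* and *krt70* and the homeobox gene *dlx3* had no Sox3 peak in reach at either stage, while 1, 5 and 2 stage 10.5 Sox3 peaks lay near them.

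Pluripotency-stage and maternal genes had a gained peak at 9 of 14 genes and a kept peak at 5. The clustered genes *pou5f3.1*, *pou5f3.2* and *pou5f3.3*, relatives of mammalian Oct4, shared 1 kept peak on chromosome 8 at 3284480 to 3285006, with a fold of 18.4 at stage 9 and 14.99 at stage 8. Up to 5 gained peaks lay around them. *Klf2*, a Krüppel-like factor gene, had 1 kept peak, with a fold of 28.8 at stage 9 and 17.2 at stage 8. *Ventx1.1* also had 1 kept peak, with a fold of 28.3 at stage 9 and 18.2 at stage 8. The *sox3* gene itself had 2 gained peaks, with folds of 21.7 and 14.0, and no stage 8 peak. None of these 14 genes had a lost peak.

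Mesendoderm and organizer regulators held most of the lost peaks of the lists. Of 22 genes, 14 had a gained, 5 a kept and 7 a lost peak, and the lost share of 31.8% stood against 19.8% of all genes. Over the 66 listed genes the lost share was 13.6%, and no interval was computed for these small counts. The genes with a lost peak were *gata5*, *foxa2*, *foxa4*, *gsc*, *nodal6*, *sia1* and *sia2*, where *sia1* and *sia2*, homeobox genes that start the organizer, shared 1 peak with a fold of 13.8. Folds of these lost peaks ran between 8.77 near *gata5*, an endoderm GATA gene, and 14.9 near *foxa4*. *Foxa2*, *foxa4* and *gsc* also had gained peaks, with highest stage 9 folds of 31.6, 36.2 and 31.8. The genes *gata5*, *nodal6*, *sia1* and *sia2* had neither a gained nor a kept peak. *Nodal1* and *nodal2*, which encode TGF-beta ligands that induce mesendoderm, shared a kept peak with a fold of 25.7 at stage 9 and 12.7 at stage 8. *Mix1* and *mixer*, homeobox genes of endoderm, shared a kept peak with a fold of 18.5 at stage 9 and 27.1 at stage 8. *Gata4* had a kept peak within the gene, with a fold of 41.2 at stage 9, the highest of the kept peaks of the lists at that stage, and 25.3 at stage 8.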

How the data were processed

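The authors mapped reads to version 10.0 of the *X. tropicalis* genome, removed duplicates and called peaks with MACS2 against input. For peak lists, replicates were combined, where a group had them, by the irreproducible discovery rate at 0.05. The submitters name Bowtie2 2.2.7 as aligner. Each deposited peak list carries, per peak, the ratio (fold) of ChIP to input at the summit, −log10 values of p and q, and an irreproducibility score, of which the fold is reported here. H3K27ac and H3K27me3 lists were stitched and ranked by the authors with ROSE, and the H3K27ac tables hold a deposited signal that was not used beyond the rank.

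Overlaps of at least 1 bp, shares with Wilson intervals, differences of shares with Newcombe intervals and medians with order-statistic intervals were computed in Python 3.11.15 with pandas 2.3.3 and numpy 2.4.6. Coverage was tested on simulated independent values for the Wilson interval and the interval of a single median. It was not tested for differences of shares or of medians, or for clustered peaks. Genes came from the RefSeq table of assembly UCB_Xtro_10.0, without sequence, strand or exons, and 3 of 69 listed symbols were not matched. Named peaks were the 5 highest folds and the 3 longest runs of each set, with ties. The sets and gene lists were chosen with earlier results of these data known. Alternatives are given in the closing section.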

Additional observations from a re-analysis of the deposited data

Results flagged for a closer look

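For Ep300 and H3K27me3, the balance between the tissues had opposite signs in gained and lost peaks. The share with Ep300 was higher in ectoderm than in endoderm by 14.2 percentage points at gained peaks, whereas at lost peaks the ectoderm minus endoderm value was -17.8. The second Ep300 experiment gave, in wild-type embryos, 9.19 at gained and -20.2 at lost peaks. Kept stage 9 peaks also had negative Ep300 values, -10.6 in the first experiment and -15.4 in the second. A negative Ep300 value was thus not particular to lost peaks. As background, ectoderm Ep300 met 21.2% of all merged Sox3 regions, and endoderm Ep300 met 23.2%. With the second experiment these backgrounds were 23.5% and 28.3%. For H3K27me3 the ectoderm minus endoderm value was 3.54 at gained, 1.54 at kept stage 9 and -17.0 at lost peaks. Its background over merged regions was 33.7% for ectoderm and 36.7% for endoderm. The gap at lost peaks was smaller with H3K27me3 regions of 3 kb or more. The lost shares were then 41.05% in ectoderm and 48.7% in endoderm, and the gained shares 24.0% and 20.7%. For H3K27ac the signs were not opposite, with 15.3 at gained and 0.0837 at lost peaks. These contrasts were not tested, because each tissue has 1 list per mark and the lists differ in length.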

How the results depend on the processing

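Of 65 alternative values for 12 results, 40 moved by less than their intervals, 24 moved further and 1 changed sign. With the 50% of peaks of highest fold in each list, the kept share was 19.2% at stage 9 and 14.6% at stage 8, the fold difference was -3.65 for gained minus kept and 6.21 for kept minus lost, and the width difference for kept minus lost was 177 bp. The gained minus lost differences were then 62.9 points for ectoderm Ep300, 27.1 for endoderm Ep300, -46.1 for ectoderm H3K27me3, 69.5 for stage 10.5 Sox3 and 4.04 for close neighbours. With an overlap of 50% of both peaks, the kept shares were 20.7% at stage 9 and 15.6% at stage 8, kept minus lost was 5.995 in fold and 146 bp in width, the stage 10.5 Sox3 difference was 75.8 points, and the width of gained minus kept peaks was 12 bp. With the stage 8 list cut to the length of the stage 9 list, the kept shares were 20.4% at stage 9 and 20.6% at stage 8, and gained minus lost was -41.04 points for ectoderm H3K27me3, 75.8 for stage 10.5 Sox3 and 15.9 for close neighbours. The fewer peaks kept under the stricter overlap follow from its construction. So does the lower stage 9 kept share after the stage 8 list was cut, since the cut removed possible partners. It also dropped the weakest stage 8 peaks, kept at 9.78% and 8.92% in deciles 1 and 2. Cutting both lists to 50% removed partners on each side, so those kept shares cannot show how strength relates to being kept. The cause of the other shifts was not tested.

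In the second Ep300 experiment the gained minus lost difference was 58.6 points in ectoderm and 29.3 in endoderm. Of the 65 values, 14 came from alternatives chosen after seeing the data. Among these, close neighbours without runs of 10 or more peaks gave 14.1 points, and ectoderm H3K27me3 in regions of 3 kb or more gave -17.0. No paired analysis was possible because each group had 1 list, and for the same reason no replicate could be left out. Replicates were combined within a list, except that the first Ep300 experiment and H3K27ac had 1 library per tissue. The number of peaks in a list depends on depth and antibody, so a site absent from a list may still have been bound.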
